A study of Mus musculus with 6 samples.

Results

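Bone morphogenetic proteins (BMPs) are secreted ligands of the TGF-beta superfamily, and 7 genes of this system were followed through single cells of the E11.5 mouse limb bud: the ligands Bmp2, Bmp4, Bmp5 and Bmp7, the related ligand Gdf5, and the secreted antagonists Grem1 and Nog. They were chosen by name as BMP ligands, Gdf5 and extracellular antagonists. No limit on a measured value was used, but earlier results of these data were known. All 7 had a row among the 15668 genes counted in both deposited matrices. The study made mouse models of split-hand/foot malformation type 3 and asked how the rearrangements change expression in the apical ectodermal ridge (AER), the epithelium at the distal rim of the limb bud. There were 6 groups of E11.5 limb buds with 1 droplet library each: hindlimbs of embryos homozygous for the duplication Dup, C57BL/6 wild-type hindlimbs, hindlimbs of embryos homozygous for the inversion Inv1, G4 wild-type hindlimbs, Inv1 forelimbs and G4 wild-type forelimbs.

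The Dup embryos and their wild type carry the strain label C57BL/6J, and the Inv1 embryos and their wild type the label G4 ESC. G4 is a hybrid embryonic stem cell line of 129 and C57BL/6 origin. Both alleles were made by genome editing of such cells, and lines were set up from several founders crossed to C57BL/6. In Dup a tandem copy of the region with Lbx1 and Btrc was added, and Inv1 moves the ridge enhancers of Fgf8 into the chromatin domain of these genes. The number of embryos pooled for a library could not be read from the labels or methods used here. With 1 library a group there is no replicate error, so no test between groups was run, and every interval below is a 95% interval for counting error only.

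In BMP signalling, ligands bind pairs of type I and type II receptor kinases, which phosphorylate Smad1, Smad5 and Smad9. These enter the nucleus with Smad4 and switch on genes such as Id1 and Msx2. Grem1 and Nog bind the ligands outside the cell and keep them from their receptors. In the limb bud, Grem1 in the distal and posterior mesenchyme lowers BMP activity under the ridge and so helps to maintain ridge FGFs, Nog accompanies early cartilage, and Gdf5 later marks the forming joints.

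In build NCBIM37, Bmp2 lies on the plus strand of chromosome 2 from 133377895 to 133388621. Bmp7 (172693513 to 172765822), Gdf5 (155766759 to 155771103) and Grem1 (113586321 to 113598803) lie on the minus strand of the same chromosome. Bmp4 lies on the minus strand of chromosome 14 (47003195 to 47010344), Bmp5 on the plus strand of chromosome 9 (75623171 to 75748117) and Nog on the minus strand of chromosome 11 (89161952 to 89163873).

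Cells with more than 2000 detected genes were used, between 2249 and 5947 a library, with 22660212 to 59403104 unique molecular identifiers (UMIs, counts of captured RNA molecules) and a median of 6729 to 10098 UMIs a cell. Pairs of libraries shared 2 to 13 cell barcodes. UMIs were summed over the cells of each class named by the authors and are given as CPM, the UMIs of a gene per 1000000 UMIs of the class, and levels were compared within a gene only. Mesenchyme made up 90.0% to 92.9% of a library, muscle 3.94% to 5.87%, and the AER only 10 to 82 cells. Fgf8 was uneven in the AER class, at 3371 CPM in Dup against 5453 CPM in C57BL/6 wild-type hindlimbs. It stood at 37.6 CPM in Inv1 against 7315 CPM in G4 hindlimbs, and at 10.3 CPM in Inv1 against 2574 CPM in G4 forelimbs. The paper reports that homozygous Inv1 embryos completely lost Fgf8 expression in the limb by in situ hybridization, so low Fgf8 in Inv1 does not by itself mark a mislabelled class. The other 7 AER markers together reached 743 to 1552 CPM in every library, although Fgf4 had no UMI in the G4 wild types. Mesenchyme markers were also present in the AER class, at 464 to 1569 CPM in sum, and the mutant ridge results of Bmp4 and Bmp2 are given with and without the cells that held 6 or more of these 12 markers.

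Bmp4 was the member most clearly tied to the ridge. AER cells held 448 CPM in Dup (70 UMIs), 514 in C57BL/6 (101 UMIs), 771 in Inv1 hindlimbs (512 UMIs), 457 in G4 hindlimbs (123 UMIs), 764 in Inv1 forelimbs (296 UMIs) and 633 in G4 forelimbs (46 UMIs). Mesenchyme lay between 41.4 and 51.6 CPM in all 6 libraries, so the ridge was 8.91 to 17.0 times higher, and the lowest bound of these ratios was 7.37. A Bmp4 UMI was found in 72.7% to 90.0% of AER cells thinned to 4000 UMIs, against 12.2% to 13.9% of mesenchymal cells and 0% to 3.85% of immune cells, a class that should lack the gene. The median AER cell of a library held 5691 to 9184 UMIs and the median immune cell 8661 to 13533. Because mesenchyme is so large, it still gave 81.5% to 94.7% of the Bmp4 UMIs of a library.

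The other BMP ligands also had higher levels in the ridge than in mesenchyme of the same library, by smaller steps. Bmp7, which like Bmp4 is made by ridge and mesenchyme, reached 96.7 to 178 CPM in the AER, 5.32 to 8.32 times its level in mesenchyme (13.8 to 26.7 CPM). It was also high in the keratinocyte class (51.1 to 112 CPM) and in dorso-ventral ectoderm (28.4 to 54.0 CPM), and in Dup the keratinocyte level of 112 CPM lay above the ridge level of 102 CPM. Bmp2 reached 30.5 to 151 CPM in the AER against 9.10 to 51.7 CPM in mesenchyme, and its excess in the ridge was 1.70 to 3.74 times, with an interval that included 1 in G4 hindlimbs. Bmp5 rested on 3 to 22 UMIs in the AER of a library, at 15.3 to 68.8 CPM against 5.13 to 8.97 CPM in mesenchyme, and its intervals included 1 in Dup and C57BL/6.

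Both antagonists were almost missing from the ridge. Among the 205 AER cells of all libraries there was 1 UMI of Grem1, in an Inv1 hindlimb cell, and 1 UMI of Nog, in an Inv1 forelimb cell. A count of 0 allows up to 3 UMIs, which is 4.52 CPM for Nog in the Inv1 hindlimb ridge but 41.3 CPM for either gene in the small G4 forelimb ridge. Grem1 came from mesenchyme, with 96.0% to 99.8% of its UMIs. Nog had no UMI in dorso-ventral ectoderm, immune or neuronal cells.

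**Figure D1:**
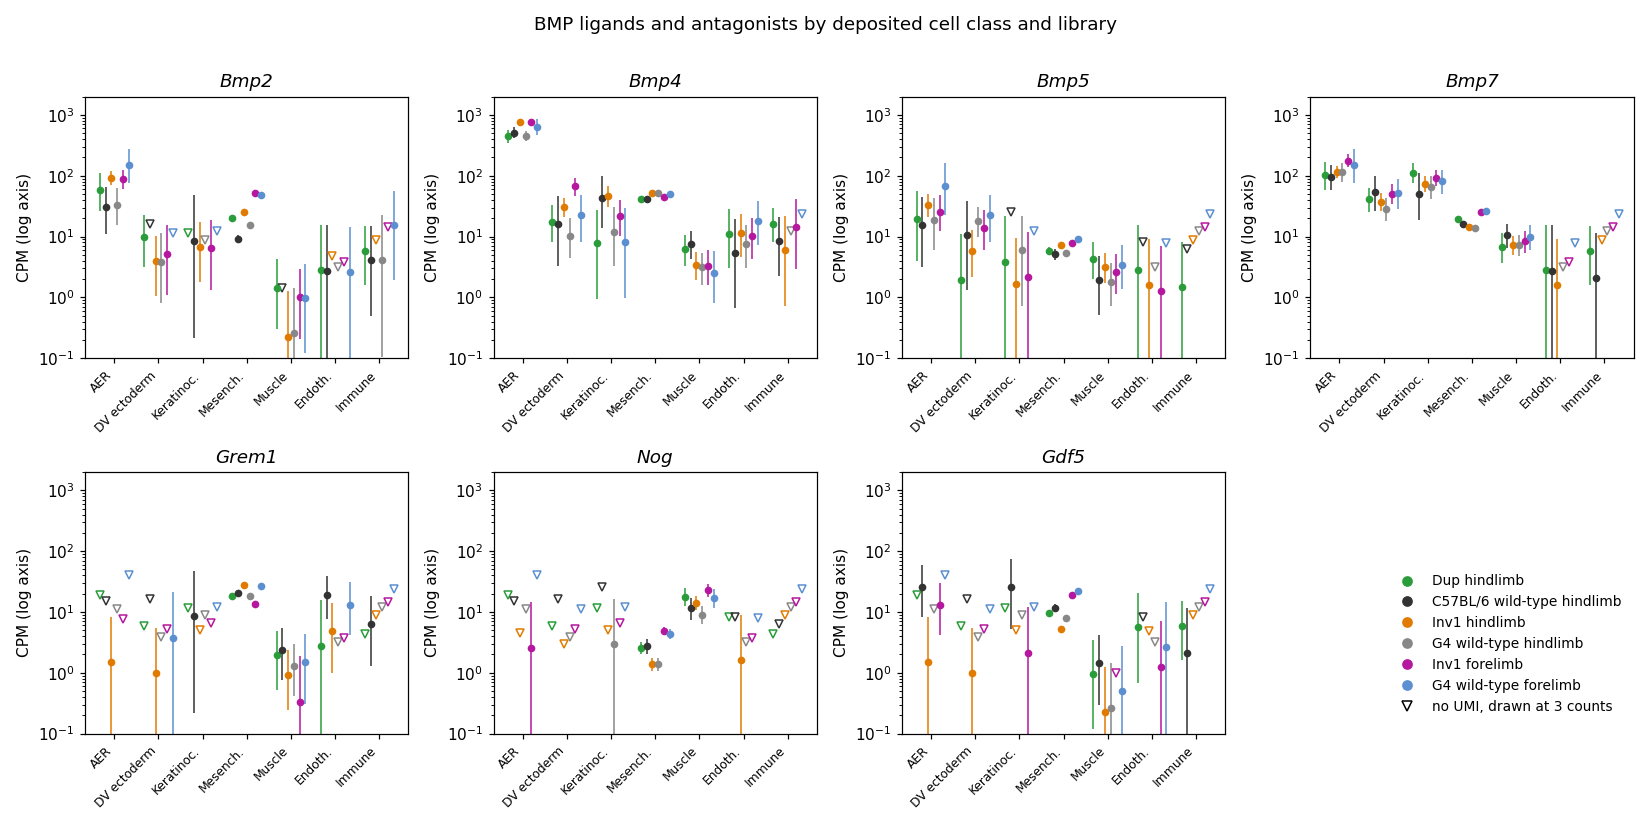
Level of each of the 7 genes in CPM on a log axis, by deposited cell class on the x axis and by library (colours), with 95% Poisson intervals of the summed UMIs; open triangles mark classes with no UMI, drawn at the level of 3 counts. Among these classes, Bmp4 stands highest in the AER (448 to 771 CPM) and Nog in muscle (9.08 to 22.7 CPM), and Grem1 is at 13.7 to 28.0 CPM in mesenchyme.

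The Inv1 hindlimb ridge held more Bmp4 and Bmp2 than the G4 one. Bmp4 was at 771 CPM in Inv1 and 457 CPM in G4, a ratio of 1.69 (1.38 to 2.07). This G4 level was the lowest of the wild-type ridges, beside 514 CPM in C57BL/6 hindlimbs and 633 CPM in G4 forelimbs. Without the cells marked by mesenchyme genes, Bmp4 was at 765 CPM in Inv1 hindlimbs and 878 CPM in C57BL/6 hindlimbs. The part of the low G4 level in the difference was not tested. Bmp2 was at 93.3 CPM in Inv1 (62 UMIs in 82 cells) and 33.4 CPM in G4 (9 UMIs in 33 cells), a ratio of 2.79 (1.38 to 6.39). Bmp5 was at 33.1 CPM in Inv1 and 18.6 CPM in G4, with an interval that included 1 (ratio 1.78, 0.659 to 6.03), and Bmp7 stood at 117 CPM in Inv1 and 115.2 CPM in G4 (ratio 1.02, 0.664 to 1.60). A gene was counted as past the fold where the ratio was beyond 1.5-fold in either direction, provided that it averaged at least 10 CPM over the pair and had at least 20 UMIs in it. By this count 3 of the 4 measured members were past the fold, all higher in Inv1, where 27.1% of the 5606 genes measured in these cells were past the fold in either direction. Their median log2 ratio was 0.74, beside -0.01 over all genes measured. Leaving out the 1 Inv1 cell with mesenchyme markers gave 1.68 for Bmp4 and 2.73 for Bmp2, and defining the ridge by markers other than Fgf8 and En1 gave 2.09 for Bmp4, 3.16 for Bmp2 and 0.812 for Bmp5.

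In the forelimb ridge the direction of Bmp2 depended on whether cells with mesenchyme markers were kept, and the libraries were small. Bmp4 stood at 764 CPM in Inv1 and 633 CPM in G4 (ratio 1.21, 0.882 to 1.68). Bmp2 stood at 87.8 CPM in Inv1 and 151 CPM in G4, a ratio of 0.580 with an interval of 0.287 to 1.27. Of the 11 Bmp2 UMIs of the 10 G4 cells, 7 lay in 1 cell that also held mesenchyme markers. Without the marked cells Bmp2 was at 90.6 CPM in Inv1 and 64.5 CPM in G4 (ratio 1.41, 0.501 to 5.45), and Bmp4 at 776 CPM in Inv1 and 532 CPM in G4 (ratio 1.46, 1.02 to 2.16). So 1 of 3 measured members was past the fold with these cells and 0 without them, beside 42.3% of all genes measured in this pair. Bmp7 was at 178 CPM in Inv1 and 151 CPM in G4 (ratio 1.18, 0.618 to 2.47). Defining the ridge by markers other than Fgf8 and En1 gave a Bmp4 ratio of 2.33.

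In the Dup ridge no measured member was past the fold, and this depended on a few cells. Bmp4 was at 448 CPM in Dup and 514 CPM in C57BL/6 (ratio 0.871, 0.633 to 1.19), and Bmp7 at 102 CPM in Dup and 96.7 CPM in C57BL/6 (ratio 1.06, 0.509 to 2.17), so 0 of 2 were past the fold against 29.9% of all genes. Of the 16 C57BL/6 cells, 4 held 6 or more mesenchyme markers at a median of 23797 UMIs, against 6682 UMIs in the others. All 5 Gdf5 UMIs of this ridge were in those 4 cells, and Gdf5 had no UMI in the remaining 12. Without marked cells Bmp4 was lower in Dup, at 457 CPM in Dup and 878 CPM in C57BL/6 (ratio 0.520, 0.368 to 0.733), and Bmp7 at 102 CPM in Dup and 152 CPM in C57BL/6 (ratio 0.672, 0.298 to 1.53). Bmp2 was under the limit of 20 UMIs, at 57.6 CPM in Dup on 9 UMIs and 30.5 CPM in C57BL/6 on 6 UMIs. Its ratio was 1.89 (0.600 to 6.44), or 1.31 (0.366 to 5.82) without marked cells. The part of the marked cells in the Bmp4 difference was not tested beyond leaving them out. Wild-type ridges differed as well: Bmp2 was at 151 CPM in G4 forelimbs and 33.4 CPM in G4 hindlimbs (ratio 4.53, 1.71 to 12.4), 1 of 3 measured members past the fold beside 44% of all genes. Without the 1 marked G4 forelimb cell, Bmp2 was at 64.5 CPM in G4 forelimbs on 4 UMIs and 33.4 CPM in G4 hindlimbs on 9 UMIs (ratio 1.93, 0.434 to 6.91), under the limit of 20 UMIs. Leaving out marked cells from wild-type pairs was an alternative added after the data were seen. Between the G4 and C57BL/6 hindlimb ridges 0 of 2 measured members were past the fold, beside 37.3% of all genes, but without the 4 marked C57BL/6 cells Bmp4 was past the fold there too, at 457 CPM in G4 and 878 CPM in C57BL/6 (ratio 0.520, 0.387 to 0.703).

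In dorso-ventral ectoderm, the surface epithelium outside the ridge, Bmp4 was higher in Inv1 in both limbs. Hindlimbs held 30.5 CPM in Inv1 (31 UMIs in 95 cells) and 10.3 CPM in G4 (8 UMIs in 64 cells), a ratio of 2.96 (1.33 to 7.45). Forelimbs held 66.8 CPM in Inv1 (38 UMIs in 45 cells) and 22.6 CPM in G4 (6 UMIs in 24 cells), a ratio of 2.96 (1.24 to 8.57). Without the cells marked by 6 or more mesenchyme genes the ratios were 2.96 in hindlimbs and 3.39 in forelimbs. Ridge markers other than Fgf8 were lower in sum in Inv1, at 164 CPM in Inv1 against 222 CPM in G4 hindlimbs and 186 CPM in Inv1 against 259 CPM in G4 forelimbs. Most of this sum was Sp8 and En1, for example 92.5 and 39.4 CPM in Inv1 hindlimbs. Among these markers Fgf9 alone was higher in Inv1 in both limbs with more than 10 UMIs, at 15.7 CPM in Inv1 against 2.58 CPM in G4 hindlimbs and 28.1 CPM in Inv1 against 3.76 CPM in G4 forelimbs. Rspo2 had 1 UMI in Inv1 hindlimbs and 4 in Inv1 forelimbs, against 0 in both G4 libraries. A single cell held up to 6 Bmp4 UMIs in Inv1 hindlimbs and 8 in Inv1 forelimbs, against 1 in each G4 library. Whether ridge cells lay in this class, and their part in the Bmp4 result, was not tested. Bmp5 was lower in Inv1 hindlimbs, at 5.90 CPM in Inv1 and 18.05 CPM in G4 (ratio 0.327, 0.103 to 0.906, and 0.383 with an interval of 0.118 to 1.10 without the marked cells). Past the fold were 2 of 3 measured members in hindlimbs and 1 of 2 in forelimbs, where 17.8% and 30.7% of all genes were, while in Dup the 1 measured member was not, where 28.5% of all genes were.

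In mesenchyme, where sums rest on 2025 to 5384 cells a library, Bmp2 was the member that separated the hindlimb libraries most. Bmp2, which acts in cartilage and in the death of interdigital cells later in development, stood at 20.3 CPM in Dup and 9.10 CPM in C57BL/6, a ratio of 2.22 (1.88 to 2.65). Inv1 hindlimbs held 25.0 CPM and G4 hindlimbs 15.5 CPM, a ratio of 1.61 (1.47 to 1.76), and Inv1 forelimbs held 51.7 CPM and G4 forelimbs 48.9 CPM (ratio 1.06, 0.980 to 1.14). The wild-type hindlimbs also differed, since G4 was 1.71 times C57BL/6 (1.45 to 2.02). Over whole mesenchyme this step was as large as that between Inv1 and G4. Bmp4 had mutant to wild-type ratios of 0.981 in Dup, 1.01 in Inv1 hindlimbs and 0.894 (0.829 to 0.965) in Inv1 forelimbs.

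Grem1 went in opposite directions in the Inv1 limbs. Inv1 hindlimb mesenchyme held 28.0 CPM (1441 UMIs) and G4 hindlimb mesenchyme 18.01 CPM (910 UMIs), a ratio of 1.55 (1.43 to 1.69), or 1.47 and thus within the fold as a mean over cells. Inv1 forelimb mesenchyme held 13.7 CPM (489 UMIs) and G4 forelimb mesenchyme 26.4 CPM (618 UMIs), a ratio of 0.518 (0.459 to 0.584). The intervals lie far apart, but the difference between limbs was not tested, as each ratio compares a single library with another. In Dup, Grem1 was at 18.6 CPM in Dup and 20.2 CPM in C57BL/6 (ratio 0.920, 0.808 to 1.05). Over the measured members, 1 of 5 was past the fold in Dup (Bmp2 higher), 2 of 4 in Inv1 hindlimbs (Bmp2 and Grem1 higher) and 1 of 5 in Inv1 forelimbs (Grem1 lower), where 2.66%, 0.843% and 9.64% of all measured genes were. The median log2 ratio of all genes was -0.07 in Dup, 0.04 in Inv1 hindlimbs and -0.17 in Inv1 forelimbs. Against that last shift, Bmp4 in Inv1 forelimbs lay near the median gene, at -0.16, and at a ratio of 1.01 with median-of-ratios scaling.

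Gdf5 was below wild type in whole mesenchyme of every mutant, but with over 3000 detected genes a cell the forelimb ratio was 1.09, and with equal shares of distal and proximal cells the Dup ratio was 1.06. It was at 9.51 CPM in Dup and 11.8 CPM in C57BL/6 (ratio 0.808), 5.19 CPM in Inv1 and 8.08 CPM in G4 hindlimbs (ratio 0.642, 0.548 to 0.751), and 18.7 CPM in Inv1 and 22.3 CPM in G4 forelimbs (ratio 0.841, log2 -0.25 beside -0.17 for the median gene). The value of Inv1 hindlimbs was past 1.5-fold but under the limit of 10 CPM. Nog, at 1.38 to 4.84 CPM, had intervals that included 1 in the 3 mutant pairs, and Bmp7 had ratios of 1.21 in Dup, 1.02 in Inv1 hindlimbs and 0.969 in Inv1 forelimbs.

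**Figure D2:**
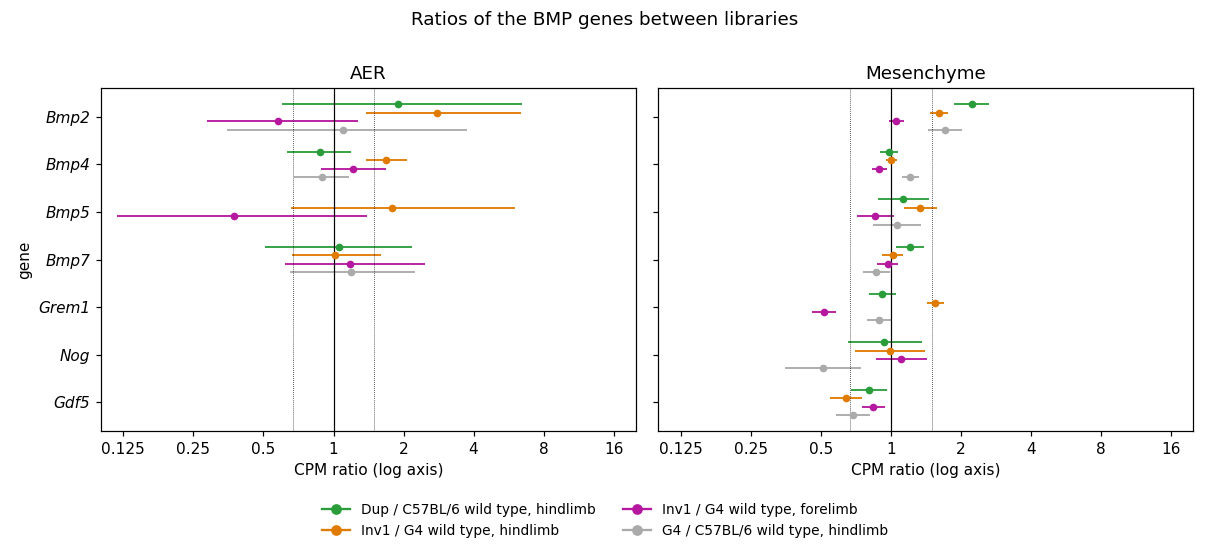
Ratio of CPM between libraries for each gene in AER cells and in mesenchyme on a log axis, with 95% intervals for counting error; the pairs are mutant over wild type in 3 colours and G4 over C57BL/6 wild-type hindlimb in grey, dotted lines mark 1.5-fold, and genes with fewer than 15 UMIs in a pair or none in 1 library are not drawn. In mesenchyme Grem1 lies at 1.55 in Inv1 hindlimbs and at 0.518 in Inv1 forelimbs, and Bmp2 at 2.22 in Dup.

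The wild-type limbs themselves differed in most members. In G4 mesenchyme, Bmp2 was at 48.9 CPM in forelimbs and 15.5 CPM in hindlimbs (ratio 3.15, 2.87 to 3.45), Gdf5 at 22.3 CPM in forelimbs and 8.08 CPM in hindlimbs (ratio 2.76) and Bmp7 at 26.7 CPM in forelimbs and 13.8 CPM in hindlimbs (ratio 1.93). Past the fold were 3 of 5 measured members, where 31.9% of all genes were. The median gene was 0.33 higher on the log2 scale in forelimbs, and relative to it Bmp4 (ratio 0.982) was lower in forelimbs. Nog, below the limit of 10 CPM, was at 4.36 CPM in forelimbs and 1.39 CPM in hindlimbs (ratio 3.15, 2.30 to 4.33). Between wild-type hindlimbs, 1 of 4 measured members was past the fold (Bmp2), where 7.73% of all genes were, and Nog was at 1.39 CPM in G4 and 2.72 CPM in C57BL/6 (ratio 0.509, 0.351 to 0.744).

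The authors' finer classes of the Dup and C57BL/6 hindlimbs place the members along the limb axis, which runs from the stylopod (thigh) over the zeugopod (shank) to the autopod (foot). The autopod and stylopod classes followed their markers. The autopod genes Hoxa13 and Hoxd13 summed to 453 CPM in Dup and 474 CPM in C57BL/6 autopod mesenchyme, against 35.2 CPM in Dup and 25.2 CPM in C57BL/6 stylopod mesenchyme, and the stylopod genes Meis1 and Meis2 had 354 to 586 CPM in stylopod and 6.61 to 23.1 CPM in autopod mesenchyme. The zeugopod genes Hoxa11 and Hoxd11 did not separate the zeugopod class from the autopod one, with 272 to 422 CPM in zeugopod and 253 to 368 CPM in autopod mesenchyme. Grem1 was highest in the autopod, with 31.4 CPM in Dup and 50.9 CPM in C57BL/6, lower in the zeugopod, with 15.4 CPM in Dup and 28.1 CPM in C57BL/6, and lowest in the stylopod, with 2.96 CPM in Dup and 3.99 CPM in C57BL/6. Within the autopod and the zeugopod the gene was thus lower in Dup, with ratios of 0.616 (0.512 to 0.743) and 0.546 (0.435 to 0.685), although whole mesenchyme gave 0.920. Autopod cells made up 34.5% of mesenchyme in Dup and 16.1% in C57BL/6, and stylopod cells 18.2% in Dup and 34.0% in C57BL/6. How many cells of each class the dissection caught cannot be told apart from the genotype with 1 library each.

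Among the 3 mesenchymal segments Bmp4 was past the fold in the autopod, with 50.1 CPM in Dup and 79.4 CPM in C57BL/6 (ratio 0.631, 0.545 to 0.732), against 46.4 CPM in Dup and 44.7 CPM in C57BL/6 zeugopod and 31.6 CPM in Dup and 27.1 CPM in C57BL/6 stylopod. Muscle connective tissue also had less of it in Dup, at 20.0 CPM in Dup and 39.3 CPM in C57BL/6 (ratio 0.510, 0.319 to 0.812). Bmp2 was higher in Dup in each segment, with ratios of 1.59 in autopod, 1.72 in zeugopod and 1.79 in stylopod, and 3.30 (1.54 to 8.10) in autopod chondrocyte progenitors, where it stood at 26.0 CPM in Dup and 7.87 CPM in C57BL/6. In the 3 segments the ratios were below the 2.22 of whole mesenchyme, while the stylopod value lay under the limit of 10 CPM. Past the fold were Bmp2, Bmp4 and Grem1 in the autopod, where 3.61% of all genes were, and Bmp2 and Grem1 in the zeugopod, where 2.43% were. In the stylopod 0 of 3 measured members were, against 2.27% of all genes.

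Gdf5 and Nog were highest in cartilage progenitors of the thigh. Stylopod chondrocyte progenitors, which had the highest sum of cartilage markers among the finer classes (2003 CPM in Dup, 2492 CPM in C57BL/6), held 85.7 CPM of Gdf5 in Dup (72 UMIs) and 49.0 CPM in C57BL/6 (64 UMIs), a ratio of 1.75 (1.23 to 2.49). The same cells held 29.8 CPM of Nog in Dup and 22.2 CPM in C57BL/6 (ratio 1.34, 0.752 to 2.37). Bmp7 was at 15.5 CPM in Dup and 5.36 CPM in C57BL/6 there, on 13 and 7 UMIs (ratio 2.89, 1.07 to 8.54). Past the fold were 2 of 4 measured members here, beside 15.5% of all genes, and 2 of 3 in autopod chondrocyte progenitors, beside 16.1%, where Bmp4 (14.7 CPM in Dup, 23.6 CPM in C57BL/6) was lower. In these autopod cells Nog had 15 UMIs in Dup and 1 in C57BL/6. Grem1 had 7 UMIs in the Dup stylopod chondrocyte progenitors and 0 in the C57BL/6 ones. In muscle connective tissue, where 1 of 3 measured members (Bmp4) and 15.5% of all genes were past the fold, Nog had no UMI in either library.

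**Figure D3:**
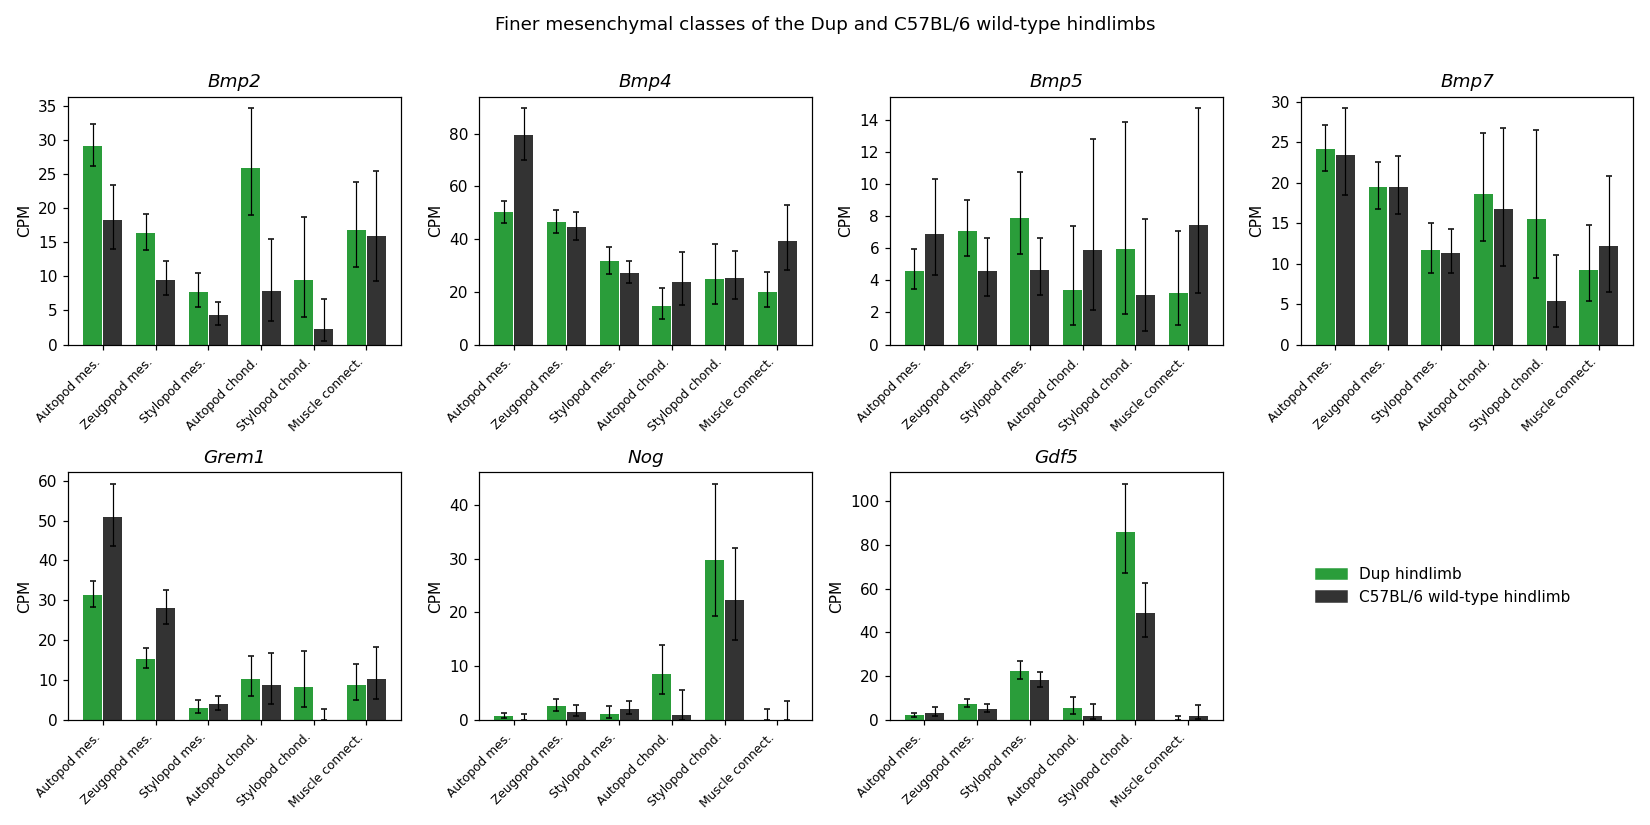
Level of each gene in CPM in 6 finer mesenchymal classes (x axis), for Dup (green, left bar) and C57BL/6 wild-type hindlimbs (black, right bar), with 95% Poisson intervals. Grem1 is lower in Dup in autopod (31.4 CPM in Dup, 50.9 CPM in C57BL/6) and zeugopod (15.4 CPM in Dup, 28.1 CPM in C57BL/6), and Gdf5 and Nog stand highest in stylopod chondrocyte progenitors.

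No finer classes were used for the G4 and Inv1 libraries, so mesenchymal cells of all libraries were also grouped by marker UMIs after thinning to 4000 UMIs: cells with a UMI of the distal genes Hoxa13 or Hoxd13 only, of the proximal genes Meis1 or Meis2 only, of both or of neither. This grouping was chosen after the data were seen. Distal cells made up 41.0% of mesenchyme in Dup and 19.9% in C57BL/6, 48.8% in Inv1 and 33.6% in G4 hindlimbs, and 59.8% in Inv1 and 52.8% in G4 forelimbs. Every mutant library thus held a larger distal share by these markers than its wild type, so each whole-mesenchyme ratio above compares libraries of unlike shares. The shares rest on UMIs of the marker genes, and whether the level of these genes itself changed was not tested.

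Within distal cells the forelimb difference in Grem1 was larger. Inv1 forelimbs held 13.7 CPM and G4 forelimbs 37.4 CPM, a ratio of 0.366 (0.317 to 0.423), while cells with neither marker pair held 13.2 CPM in Inv1 and 11.1 CPM in G4 forelimbs (ratio 1.19, 0.921 to 1.54). In the other 5 libraries Grem1 in distal cells stood further above cells with neither pair. Inv1 hindlimbs, for example, held 36.6 CPM in distal cells and 20.8 CPM in cells with neither. In hindlimbs the distal cells held 36.6 CPM in Inv1 and 29.4 CPM in G4 (ratio 1.25, 1.12 to 1.38), and in Dup 26.7 CPM against 35.1 CPM in C57BL/6 (ratio 0.761, 0.626 to 0.928). In proximal cells the Inv1 ratios were above 1 in both limbs, with 9.15 CPM in Inv1 and 1.91 CPM in G4 hindlimbs on 32 and 14 UMIs (ratio 4.78, 2.48 to 9.70), and 23.1 CPM in Inv1 and 2.87 CPM in G4 forelimbs on 12 and 2 UMIs (ratio 8.05, 1.79 to 74.1). With equal shares of the 4 marker groups in both libraries, Grem1 ratios were 0.714 in Dup, 1.37 in Inv1 hindlimbs and 0.529 in Inv1 forelimbs. Bmp2 ratios were then 1.76 in Dup, 1.46 in Inv1 hindlimbs and 1.03 in Inv1 forelimbs. For G4 over C57BL/6 hindlimbs no such ratio was computed. There Bmp2 had ratios of 1.32 (1.02 to 1.73) in distal cells and 1.53 (1.18 to 2.01) in cells with neither pair. In proximal cells of that pair the ratio was 1.37 (0.859 to 2.24).

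Gdf5 had the reverse slope, low in distal cells and higher in proximal ones. In G4 forelimbs it ran at 10.3 CPM in distal cells, 35.7 CPM in cells with neither pair and 76.2 CPM in the 90 proximal cells. Inv1 forelimbs were flatter, at 18.2 CPM in distal cells, 17.5 CPM in cells with neither pair and 30.9 CPM in the 55 proximal cells. The ratio of Inv1 to G4 was therefore 1.77 (1.45 to 2.16) in distal cells and 0.489 (0.410 to 0.583) in cells with neither pair, beside 0.841 for whole mesenchyme. In Dup the equal-makeup ratio of Gdf5 was 1.06, on the other side of 1 from its 0.808 in whole mesenchyme.

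**Figure D4:**
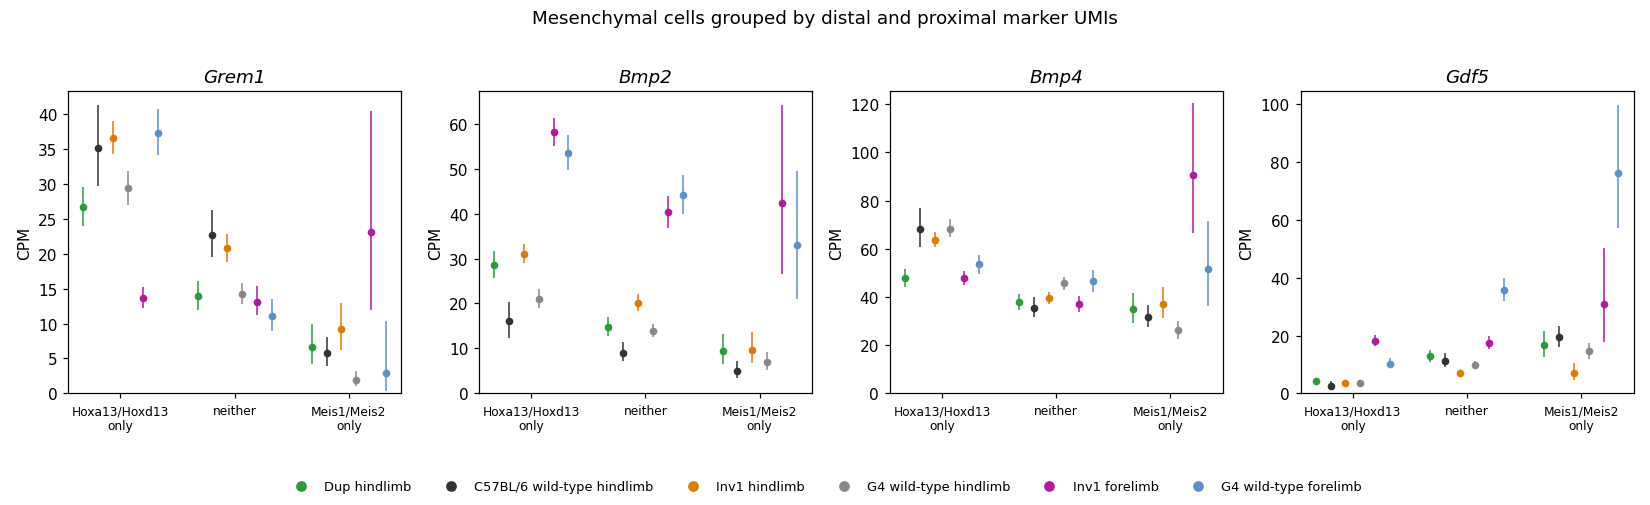
Level of Grem1, Bmp2, Bmp4 and Gdf5 in CPM in mesenchymal cells with UMIs of Hoxa13 or Hoxd13 only, of neither marker pair, and of Meis1 or Meis2 only, by library (colours), with 95% Poisson intervals. The distal Grem1 level is 13.7 CPM in Inv1 forelimbs and 37.4 CPM in G4 forelimbs, and Gdf5 reaches 76.2 CPM in the proximal cells of G4 forelimbs.

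Cells with a Grem1 UMI had a Gdf5 UMI less often than other mesenchymal cells. The 2 genes also lay at different positions. In C57BL/6, distal cells held 35.1 CPM of Grem1 and 2.39 CPM of Gdf5, and proximal cells 5.75 and 19.4 CPM. Gdf5 was not examined among distal cells alone, so the part of position in this order was not tested. After thinning, 0.519% to 4.84% of Grem1 cells held Gdf5, against 2.46% to 7.07% of the other mesenchymal cells, lower in 6 of 6 libraries and with intervals apart in 3. In Inv1 hindlimbs the shares were 0.519% of 385 Grem1 cells and 2.46% of 4995 others, in G4 hindlimbs 0.791% of 253 and 3.35% of 4931. Without thinning the share was lower in Grem1 cells in 6 of 6 libraries as well, for example 1.53% of 717 Grem1 cells and 4.05% of 4667 others in Inv1 hindlimbs. The BMP ligands Bmp4 and Bmp7 had no such order over all libraries after thinning. Bmp4 was found in 10.5% to 16.8% of Grem1 cells and 12.0% to 14.1% of the others, with overlapping intervals in each library. Among distal cells alone, Bmp4 was found in 6.10% to 19.0% of Grem1 cells and 13.9% to 19.3% of the others, lower in 5 of 6 libraries, again with overlapping intervals. Bmp7 was found more often in Grem1 cells in 5 of 6 libraries, with intervals apart only in G4 hindlimbs (10.7%, 7.15% to 15.1%, against 4.70%, 4.13% to 5.33%). Without thinning, Bmp2 and Bmp7 were found more often in Grem1 cells in 6 of 6 libraries, for example Bmp7 in 25.4% of 197 Grem1 cells and 11.7% of 1828 others in C57BL/6, while after thinning Bmp2 was found more often in 3 of 6.

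Nog was the one member enriched in muscle cells, which derive from migrating precursors that express Pax3 and Lbx1. Muscle held 17.9 CPM in Dup (37 UMIs) and 11.4 CPM in C57BL/6 (24 UMIs), 14.1 CPM in Inv1 (62 UMIs) and 9.08 CPM in G4 hindlimbs (35 UMIs), and 22.7 CPM in Inv1 (68 UMIs) and 16.8 CPM in G4 forelimbs (34 UMIs). These levels were 3.87 to 10.2 times those of mesenchyme of the same library, and muscle supplied 25.0% to 46.3% of all Nog UMIs. Within mesenchyme, however, stylopod chondrocyte progenitors stood above muscle, at 29.8 CPM in Dup and 22.2 CPM in C57BL/6. All 3 mutants were above their wild types, with ratios of 1.57 (0.913 to 2.74) in Dup, 1.55 (1.01 to 2.42) in Inv1 hindlimbs and 1.34 (0.878 to 2.09) in Inv1 forelimbs, and of these intervals only the one of Inv1 hindlimbs did not include 1. Nog was the only member that met the limits in muscle. Past the fold was thus 1 of 1 measured member in Dup and 1 of 1 in Inv1 hindlimbs, where 8.95% and 4.76% of all genes were, and 0 of 1 in Inv1 forelimbs, where 23.7% were. With over 3000 detected genes a cell the count was 0 in Dup and in Inv1 hindlimbs as well, with Nog ratios of 1.43 and 1.38. Grem1, Gdf5 and Bmp2 were at 2.38 CPM or less in muscle of every library.

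Of 40 further genes of the pathway 39 had a row. In the Inv1 hindlimb ridge, where Bmp4 and Bmp2 were higher, the response genes were lower: 5 of 7 were past the fold, all lower, among them Id2 with 40.6 CPM in Inv1 and 342 CPM in G4, Id3 with 247 CPM in Inv1 and 646 CPM in G4, and Msx2, a homeobox gene switched on by BMP, with 235 CPM in Inv1 and 565 CPM in G4. These G4 levels of Id2, Id3 and Msx2 were the highest of the 6 libraries, and the C57BL/6 ridge held 173 CPM of Msx2. Between the G4 and C57BL/6 hindlimb ridges, 4 of 6 measured response genes were past the fold, beside 37.3% of all genes. All were higher in G4, and the part of this high wild type in the Inv1 difference was not tested. In the forelimb ridge 0 of 6 measured response genes were past the fold, with Msx2 at 385 CPM in Inv1 and 399 CPM in G4. The transmembrane decoy receptor Bambi was a ridge gene in all libraries, at 875 to 2114 CPM in the AER against 55.7 to 105 CPM in mesenchyme. In the Dup ridge Msx1 (313 CPM in Dup, 148 CPM in C57BL/6) and Msx2 (365 CPM in Dup, 173 CPM in C57BL/6) were higher and Id1 (179 CPM in Dup, 270 CPM in C57BL/6) and Id2 (128 CPM in Dup, 198 CPM in C57BL/6) lower. The G4 and C57BL/6 wild-type ridges also differed in Msx1 and Msx2, with ratios of G4 to C57BL/6 of 2.72 for Msx1 and 3.26 for Msx2. Over the whole list, 6 of 10 measured genes were past the fold in the Dup ridge, beside 29.9% of all genes, and 3 were with over 3000 detected genes a cell. In the Inv1 hindlimb ridge 8 of 19 were, beside 27.1% of all genes, and in the Inv1 forelimb ridge 3 of 15, beside 42.3%.

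In mesenchyme of Dup 2 of 24 measured genes of this list were past the fold, beside 2.66% of all genes, both higher: Nbl1, an antagonist of the DAN family (49.8 CPM in Dup, 25.1 CPM in C57BL/6), and Id1 (589 CPM in Dup, 392 CPM in C57BL/6). With over 3000 detected genes a cell this count was 4. In Inv1 hindlimbs 1 of 23 was, beside 0.843% of all genes, again Nbl1 (38.3 CPM in Inv1, 24.5 CPM in G4). In Inv1 forelimbs 6 of 27 were, beside 9.64% of all genes, 5 lower and 1 higher. Among the lower ones were the receptors Bmpr1a (61.4 CPM in Inv1, 104 CPM in G4) and Bmpr2 (50.9 CPM in Inv1, 89.1 CPM in G4). The transducer Smad5 (71.6 CPM in Inv1, 136 CPM in G4) and the antagonist Chrdl1 (11.1 CPM in Inv1, 25.6 CPM in G4) were lower too. Msx2 (84.9 CPM in Inv1, 56.5 CPM in G4) was higher. These G4 forelimb levels of Bmpr1a, Bmpr2, Smad5 and Chrdl1 were the highest of the 6 libraries. Between G4 forelimb and hindlimb mesenchyme, 17 of 27 measured genes of the list were past the fold, all higher in forelimbs, beside 31.9% of all genes. The part of this high wild type in the Inv1 difference was not tested.

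The genes whose levels followed a member most closely over classes and libraries were named by Pearson correlation of log2(CPM + 10), as a description. Over 17 units of 10 classes in the C57BL/6 and Dup libraries, Gdf5 went with Sned1 (r = 0.95) and the cartilage collagens Col9a2 and Col9a3 (0.94 each), Nog with Mgp (0.88), and Grem1 with Lhx2 (0.86), a transcription factor of distal limb mesenchyme. Over 18 units of 6 classes in the G4 and Inv1 libraries, Grem1 went with Hand2 (0.97), a transcription factor of posterior mesenchyme, Bmp2 with Pdgfra (0.97), Bmp4 with Vgll4 (0.97) and Tbx3 (0.96), and Nog with Fst (0.96), which encodes follistatin. The units share libraries and depth. Of the 3 closest genes of each member, only Col9a3 with Gdf5 (0.94 and 0.89) recurred in both sets of libraries. In the C57BL/6 and Dup units, Bmp2 went most closely with Cachd1 (0.77) and Bmp4 with the unnamed gene ENSMUSG00000096210 (0.87). Those units held no AER, which had 25 cells in Dup and 16 in C57BL/6, under the limit of 30.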

How the data were processed

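Droplet single-cell RNA-seq (3′ end counting) of 6 limb bud libraries, 1 a group, was used. The labels for limb, genotype and strain set the groups. The authors deposited whole-number UMI counts for every gene in every cell, made with Cell Ranger (version 3 in the processing notes) and their own mm9-based reference. Their methods state cell filters (detected genes, mitochondrial share, Scrublet score) and name classes from integrated clusters, with Fgf8 and En1 marking the AER. These deposited classes were used. The files held 0 mitochondrial rows and cells under the stated limit of detected genes, so cells with over 2000 were kept here and no further doublets removed. A second annotation of hindlimb cells alone served as an alternative, and its matrix and 12 metadata columns were not used.

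UMIs were summed per library and class over 15668 genes, of which 14536 matched a symbol (Python 3.11.15, numpy 2.4.6, scipy 1.17.1, pandas 2.3.3, matplotlib 3.10.9). Sums have exact Poisson, shares exact Clopper-Pearson and ratios exact conditional binomial 95% intervals, which cover counting error only. A floor of 3 counts was used where a library had none. Thinning drew 4000 UMIs a cell and left out shallower cells. The ratio code was tested on simulated counts. Genes named were the 7 members, the list of other pathway genes and the 3 genes most correlated with each member among those with 50 or more CPM in a unit of 30 or more cells. Members and lists were chosen with earlier results of these data known. Alternatives were other limits, scalings, cell sets and annotations.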

Additional observations from a re-analysis of the deposited data

Results flagged for a closer look

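Grem1 in mesenchyme differed between the limbs of Inv1 under the same contrast. The Inv1 to G4 ratio was 1.55 in hindlimbs and 0.518 in forelimbs, so the single Inv1 library lay above its wild type in one limb and below it in the other. The difference between the limbs was not tested, since each group holds 1 library.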

How the results depend on the processing

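No paired analysis was possible because each group holds 1 library and no test between groups was run. Counts of members past 1.5-fold were recomputed under each alternative. With the mean over cells, 1 member was past the fold in the Dup ridge (0 as reported), 0 in the Inv1 forelimb ridge (1 as reported) and 1 in Inv1 hindlimb mesenchyme (2 as reported). With no CPM limit and 5 UMIs, the counts were 2 in the Dup ridge, 3 in the Inv1 forelimb ridge, 1 in Dup dorso-ventral ectoderm, 2 in Inv1 forelimb dorso-ventral ectoderm, 3 and 2 in muscle of Dup and Inv1 hindlimbs, 5 for G4 forelimb over hindlimb and 2 for G4 over C57BL/6. Without the mesenchyme-marked cells they were 1 in the Dup ridge and 0 in the Inv1 forelimb ridge, and with the marker gate for ridge cells 2 in the Inv1 forelimb ridge. With over 3000 detected genes they were 1 and 2 in dorso-ventral ectoderm of Inv1 hindlimbs and forelimbs, 0 in muscle of Dup and of Inv1 hindlimbs, and for the other pathway genes 3 in the Dup ridge (6 as reported) and 4 in Dup mesenchyme (2 as reported). Median-of-ratios scaling gave 1 in Inv1 forelimb muscle (0 as reported). In direction, Gdf5 in Inv1 forelimb mesenchyme was at 1.09 with over 3000 genes, Bmp4 there at 1.01 with median-of-ratios scaling, and Gdf5 in Dup mesenchyme at 1.06 with equal shares of the marker groups. The cause was not tested. The ridge comparisons are limited by 10 to 82 cells a library.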
